A study of Mus musculus with 12 samples.

Results

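The genes described here are 9 complement genes known to be made by epithelia, namely the proteases and components Masp1, C1s, C2, Cfb, C4b and C3, and the regulators Serping1, Cd55 and Cd59a. They were taken as a named list, and every probe that the array's annotation assigns to one of them was used. The list was chosen on earlier results of these same arrays, their fold changes and adjusted p-values by genotype and day, so all values and tests below describe these genes and are not independent evidence. The annotation gave 14 probes for 8 of the 9 genes, out of 45281 probes on the array, and 10 of the 14 lay above background often enough to be tested, at least 1 for each of the 8 genes. C3 had no probe carrying its symbol and was not analysed here.

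The arrays compared 3D cultures of mammary epithelial cells (MECs), which form hollow acini on a laminin-rich gel, with and without Blimp-1, the transcriptional repressor encoded by Prdm1. The 4 groups were D4 Blimp-1 cKO, D4 wild type, D3 Blimp-1 cKO and D3 wild type, where D4 and D3 are days of culture, with 3 arrays each. Blimp-1 cKO cells came from Prdm1 BEH/CA;ROSA26:CreERT2 females and wild type cells from C57BL/6 females, all pregnant, and cultures of both genotypes received 4-hydroxytamoxifen at the start, so that exposure to the drug was shared. Wild type cells are not described as carrying Cre, so loss of Blimp-1, Cre activity and the donor line cannot be told apart. The CreERT2 allele is driven from the ROSA26 locus, which is active in most cell types, so deletion was not limited to 1 kind of cell. The RNA came from independent cultures per the study's methods, but the labels do not tie arrays to animals, and the p-values measure only the spread between these samples. In such bulk samples fewer cells of a type and less RNA per cell cannot be told apart.

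Complement is a cascade of blood and tissue proteins that marks surfaces for removal. The classical pathway starts with C1, in which the protease C1s cleaves C4 and C2, and the lectin pathway starts with MASP proteases bound to sugar-recognising lectins. The alternative pathway runs on factor B, encoded by Cfb, which binds activated C3. C1 inhibitor, encoded by Serping1, blocks the starting proteases, CD55 takes apart the C3-cleaving enzymes and CD59 blocks the final membrane pore. Liver is the main source of the circulating proteins, while epithelia and fibroblasts make many of them locally, and interferons and inflammatory cytokines are known to raise several of these genes.

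Each array had between 18087 and 18905 probes detected (detection p under 0.05), and its signals were background-corrected, quantile-normalised and put on a log2 scale. Levels below are normalised log2 signals, in the order of replicates 1, 2 and 3, and a gene was called when its change reached 1.5-fold in either direction with an adjusted p no higher than 0.05. All 8 epithelial marker genes (Epcam, Krt8, Krt18 and others) were tested and none was called in any comparison. Prdm1 itself was read by probe 2597923, which was detected on 3 of 3 D4 Blimp-1 cKO arrays and 0 of 3 D4 wild type arrays, at least 1.49-fold higher (adjusted p = 0.00478). At D3 it was detected on 1 of 3 Blimp-1 cKO arrays and 0 of 3 wild type arrays (log2 fold change 0.54, adjusted p = 0.293). The second Prdm1 probe, 2744650, was detected on no array. Where both probes lie relative to the deleted exons is not stated in what was read here, so neither checks the genotype labels, and groups are named by their labels throughout.

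Of the 8 genes, 3 were called higher and 0 lower in Blimp-1 cKO than in wild type at D4 (C2, Cfb and Serping1), and 3 higher and 0 lower at D3 (C2, Serping1 and Cd59a). Over all 10724 genes tested, 2.79% were called higher and 1.45% lower at D4, and 1.94% higher and 0.55% lower at D3. The genes were listed with these results known, so nothing is read from the difference between the counts and these shares. The median log2 fold change of the 8 genes was 0.59 at D4 and 0.66 at D3, against -0.02 over all genes on both days. Averaged over both days, C2, Cfb, Serping1 and Cd59a were called higher, with 3.6% of all genes called higher in that comparison.

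The D3 calls changed when single arrays were left out. The 3 D3 calls fell to 0 without D3 wild type replicate 2, without D3 wild type replicate 3 or without D3 Blimp-1 cKO replicate 2, and to 1 without D3 wild type replicate 1, D4 wild type replicate 3 or replicate 1 of either Blimp-1 cKO day, and also without D4 Blimp-1 cKO replicate 2. The direction of C2, Serping1 and Cd59a was kept in each of these fits. At D4 the count was 3 or 4 whichever array was left out.

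Between days, Masp1, C2 and Serping1 were called higher at D4 than at D3 in Blimp-1 cKO cultures, 3 of 8 genes, with 2.53% of all genes called higher and 1.61% lower. In wild type cultures 4 of 8 were called higher, Masp1, C2, Serping1 and Cd59a, with 7.09% of all genes called higher and 4.89% lower. None of the 8 was called lower in either genotype. The genotype effect at D4 minus that at D3 was called for 0 of the 8 genes and for 0% of all genes by limma. At an unadjusted p under 0.05 the count was 2 of the 8, Cd59a and Cfb, and 793 of all genes.

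**Figure D1:**
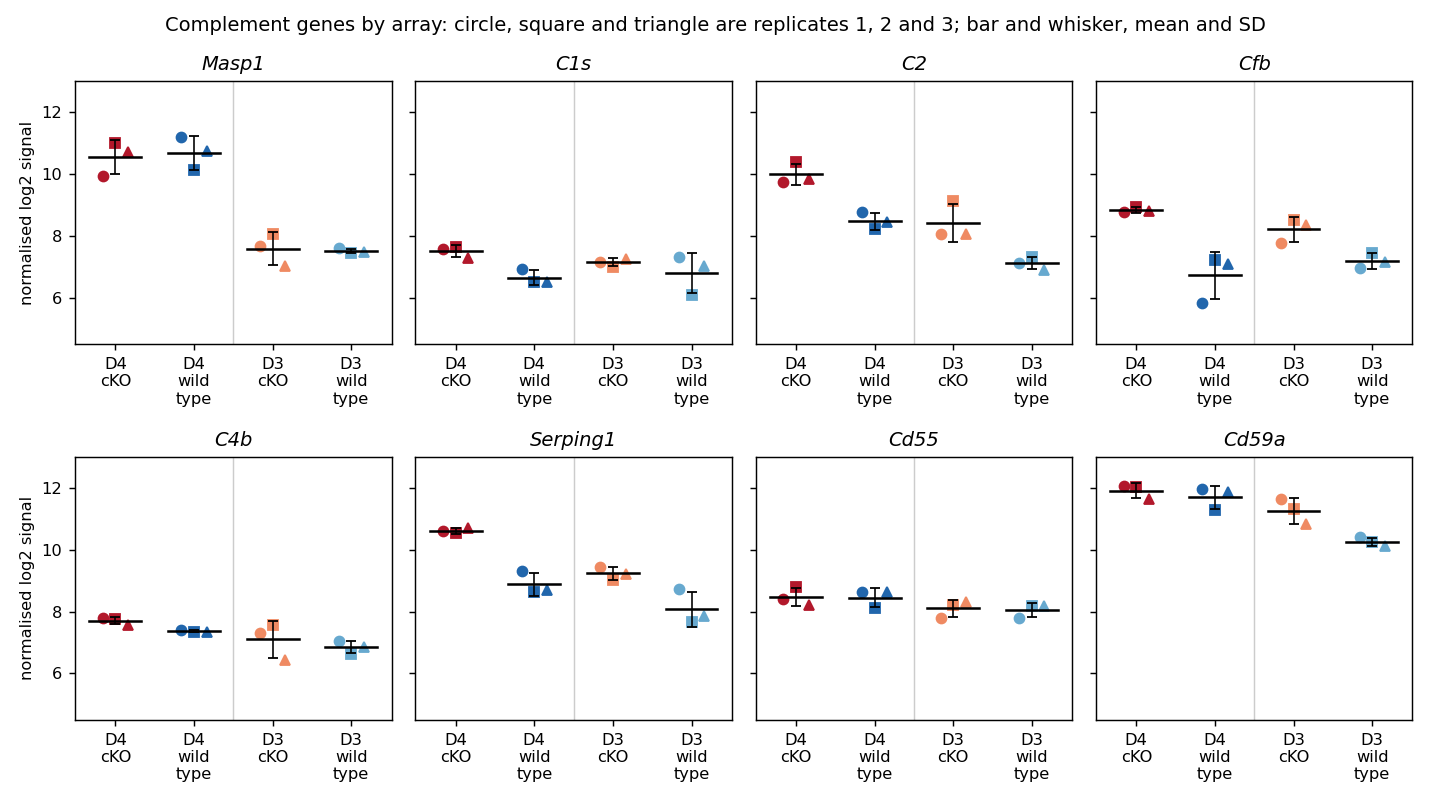
Normalised log2 signal (vertical axes, not comparable between genes) of the brightest tested probe of 8 complement genes on each of 12 arrays, in D4 Blimp-1 cKO, D4 wild type, D3 Blimp-1 cKO and D3 wild type cultures, with symbols for replicates, a bar for the mean and a whisker for the SD (n = 3). Masp1 arrays separate by day and overlap by genotype, Serping1, C2 and Cfb arrays separate by genotype on both days, and Cd55 arrays overlap throughout.

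Masp1, which encodes the lectin pathway proteases MASP-1 and MASP-3, gave the largest change between days among the 8 genes and no call for genotype. The gene lies on chromosome 16 at 23451785-23521240 (GRCm38.p6, as for all positions here). Probe 1250116 read 9.94, 10.99 and 10.72 in D4 Blimp-1 cKO cultures and 11.19, 10.12 and 10.73 in D4 wild type cultures. The D3 levels were 7.68, 8.05 and 7.03 in Blimp-1 cKO and 7.61, 7.45 and 7.48 in wild type. All 6 D4 arrays lay above all 6 D3 arrays, while the genotypes overlapped on each day. Masp1 was 7.80-fold higher at D4 than at D3 in Blimp-1 cKO cultures (log2 fold change 2.96, SE 0.33, adjusted p = 0.00332) and 8.99-fold higher in wild type cultures (3.17, SE 0.33, adjusted p = 0.000396). These calls stood in all 21 alternatives tried for each genotype. The genotype difference was -0.13 at D4 (95% interval -0.85 to 0.59) and 0.07 at D3 (-0.64 to 0.79). D4 Blimp-1 cKO minus wild type within the 3 BeadChips, the slides that each carried 1 array of both genotypes at D4, was -1.25, 0.87 and -0.01, so that the sign differed between slides.

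The other Masp1 probes gave no such signal. Probe 1250760 and probe 2660969 were detected on 0 of 12 arrays, with normalised log2 signals between 4.85 and 5.78. Probe 1250116 and probe 1250760 were designed on cDNA clones and probe 2660969 on a curated transcript of the gene, according to the array's annotation. The change between days in Masp1 was therefore carried by 1 of 3 probes, and which of the gene's transcripts that probe reads is not stated by the annotation.

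**Figure D2:**
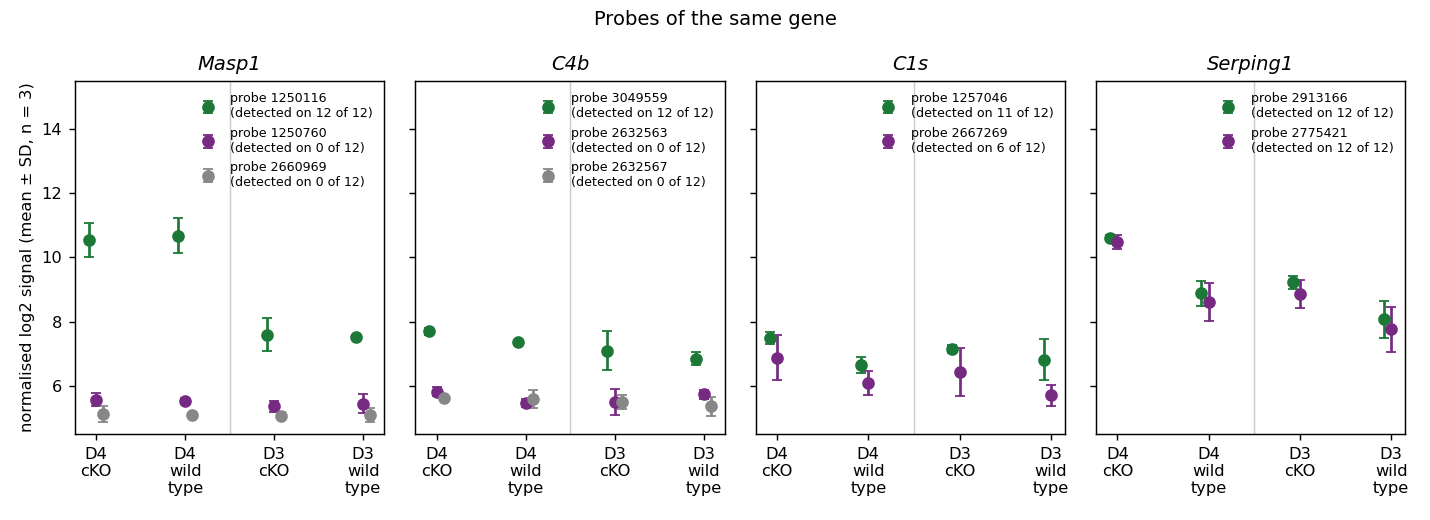
Mean and SD (n = 3 arrays) of the normalised log2 signal of every probe of Masp1, C4b, C1s and Serping1 in D4 Blimp-1 cKO, D4 wild type, D3 Blimp-1 cKO and D3 wild type cultures. Both Serping1 probes were detected on 12 of 12 arrays, while Masp1 and C4b were each read by 1 probe detected on 12 of 12 arrays, beside 2 probes detected on 0.

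C1s, the classical pathway protease that cleaves C4 and C2, was dim, and its gene lies on chromosome 6 at 124530344-124542392. Probe 1257046 read 7.58, 7.63 and 7.28 in D4 Blimp-1 cKO cultures and 6.93, 6.51 and 6.52 in D4 wild type cultures, without overlap. At D3 it read 7.17, 6.99 and 7.25 in Blimp-1 cKO and 7.31, 6.08 and 7.03 in wild type, where replicate 2 was not detected. The difference of 0.84 at D4 (SE 0.26, 95% interval 0.27 to 1.42) did not pass (adjusted p = 0.0961, between 0.0126 and 0.251 over the alternatives). It passed without D3 wild type replicate 2 (0.0126) and in a fit of only the D4 arrays (0.0449). The difference at D3 was 0.33 (-0.25 to 0.90, adjusted p = 0.69). The second probe, 2667269, was detected on 6 of 12 arrays and on 0 of the 3 D3 wild type arrays. Its difference was 0.80 at D4 (adjusted p = 0.311) and at least 1.14-fold at D3 (adjusted p = 0.511), neither called. Mice carry a near copy of this gene, and the extent to which either probe reads the copy was not tested.

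C2, which supplies the protease subunit of the classical and lectin pathway C3 convertase, was higher in Blimp-1 cKO on both days and higher at D4 than at D3 in both genotypes. Probe 2612895 read 9.74, 10.38 and 9.85 in D4 Blimp-1 cKO cultures and 8.76, 8.22 and 8.44 in D4 wild type cultures. It read 8.06, 9.12 and 8.06 in D3 Blimp-1 cKO cultures and 7.13, 7.31 and 6.90 in D3 wild type cultures. The groups did not overlap in any of these 4 comparisons. C2 was 2.87-fold higher in Blimp-1 cKO at D4 (log2 fold change 1.52, SE 0.28, adjusted p = 0.00958) and 2.45-fold higher at D3 (1.30, SE 0.28, adjusted p = 0.032). The D3 call was lost without D3 wild type replicate 1, 2 or 3 (adjusted p = 0.0826, 0.0695 and 0.146) and without D3 Blimp-1 cKO replicate 2 (0.0655). In a fit of only the D4 arrays with the BeadChip as a block the D4 difference of 1.52 had an adjusted p of 0.0592. At D4 it was higher than at D3 by 2.99-fold in Blimp-1 cKO (adjusted p = 0.014) and by 2.56-fold in wild type (adjusted p = 0.0072). The Blimp-1 cKO call between days was lost without D3 Blimp-1 cKO replicate 1 (adjusted p = 0.0526) or D4 Blimp-1 cKO replicate 2 (0.0546).

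Cfb, which encodes factor B of the alternative pathway, was higher in Blimp-1 cKO at D4. Probe 1230853 read 8.77, 8.93 and 8.79 in D4 Blimp-1 cKO cultures and 5.83, 7.21 and 7.10 in D4 wild type cultures, where replicate 1 was not detected. The D3 levels were 7.76, 8.51 and 8.36 in Blimp-1 cKO and 6.95, 7.46 and 7.17 in wild type. Blimp-1 cKO arrays lay above wild type arrays on both days. Cfb was 4.33-fold higher at D4 (log2 fold change 2.11, SE 0.32, adjusted p = 0.00289), and 1.67 on the log2 scale without D4 wild type replicate 1, the undetected array. The D3 difference of 1.02 (SE 0.32, 95% interval 0.31 to 1.72) did not pass (adjusted p = 0.177). It passed with the replicate number as a block (adjusted p = 0.0359) and without D4 wild type replicate 1. Within the 3 BeadChips the D4 difference was 2.93, 1.72 and 1.68. Cfb was not called between days, with a change of 0.62 in Blimp-1 cKO (adjusted p = 0.277) and -0.48 in wild type (adjusted p = 0.338).

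C2 and Cfb lie side by side on chromosome 17 (GRCm38.p6), with Cfb at 34856374-34862514, C2 at 34862602-34882100 and 87 bases between them. The reference annotation lists C2 also as an older name of Cfb, and the study's own table of probes gives the symbol Cfb to probe 2612895, which the array's annotation assigns to C2. The C2 probe was called between days in both genotypes and the Cfb probe in neither, and whether their changes differ was not tested.

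C4b, the component cleaved by C1s to form C4b on target surfaces, was read by probe 3049559 at 7.78, 7.75 and 7.57 in D4 Blimp-1 cKO cultures and 7.39, 7.34 and 7.35 in D4 wild type cultures. At D3 the levels were 7.32, 7.56 and 6.42 in Blimp-1 cKO and 7.05, 6.64 and 6.85 in wild type. The groups separated at D4 and overlapped at D3, and neither difference passed (0.34 at D4, 95% interval -0.18 to 0.86, adjusted p = 0.488, and 0.25 at D3, -0.26 to 0.77, adjusted p = 0.746). Probes 2632563 and 2632567 were detected on 0 of 12 arrays. C4b lies on chromosome 17 at 34728139-34743902, with 112471 bases between it and Cfb, and has a near copy, C4a, so that a probe may read both.

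Serping1, the gene of C1 inhibitor, was the only one of the 8 genes with a pair of probes detected on 12 of 12 arrays. It lies on chromosome 2 at 84765360-84775444. The brighter probe, 2913166, read 10.60, 10.53 and 10.70 in D4 Blimp-1 cKO cultures and 9.32, 8.63 and 8.69 in D4 wild type cultures. It read 9.43, 9.03 and 9.22 in D3 Blimp-1 cKO cultures and 8.72, 7.66 and 7.84 in D3 wild type cultures. Blimp-1 cKO arrays lay above wild type arrays on both days, and wild type replicate 1 was the highest wild type array on each day. The order of the group means was D4 Blimp-1 cKO, D3 Blimp-1 cKO, D4 wild type and D3 wild type, with the arrays of the 2 middle groups overlapping.

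Serping1 was 3.31-fold higher in Blimp-1 cKO at D4 (log2 fold change 1.73, SE 0.26, adjusted p = 0.00264) and 2.22-fold higher at D3 (1.15, SE 0.26, adjusted p = 0.039). The second probe, 2775421, gave 1.88 at D4 (adjusted p = 0.0137) and 1.10 at D3 (adjusted p = 0.207). The D4 call stood whichever array was left out, with a fold change between 1.60 and 1.95 on the log2 scale, and within the 3 BeadChips it was 1.28, 1.89 and 2.00. The D3 call stood near the threshold and was lost in 10 of the 12 fits that left out 1 array, all but those without D3 wild type replicate 1 or D4 wild type replicate 1, with adjusted p up to 0.173. Between days Serping1 was 2.61-fold higher at D4 in Blimp-1 cKO (adjusted p = 0.0163) and 1.75-fold higher in wild type (adjusted p = 0.0495). The wild type call was lost in 11 of 12 such fits, all but that without D3 wild type replicate 1 (adjusted p up to 0.17). The Blimp-1 cKO call was lost without D3 Blimp-1 cKO replicate 3 (0.0501), D4 Blimp-1 cKO replicate 2 (0.053) or replicate 3 (0.0593).

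Cd55 and Cd59a encode the regulators that sit on the cell membrane, and lie on chromosome 1 at 130429798-130465009 and on chromosome 2 at 104095753-104115410. Cd55 read 8.41, 8.80 and 8.20 in D4 Blimp-1 cKO cultures and 8.62, 8.11 and 8.62 in D4 wild type cultures, and 7.80, 8.20 and 8.31 in D3 Blimp-1 cKO and 7.78, 8.17 and 8.17 in D3 wild type cultures. Its groups overlapped in all 4 comparisons. The genotype difference was 0.02 at D4 (95% interval -0.43 to 0.47) and 0.06 at D3 (-0.39 to 0.51), and the change between days was 0.37 in Blimp-1 cKO (adjusted p = 0.313) and 0.41 in wild type (adjusted p = 0.198).

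Cd59a differed by genotype at D3 and between days in wild type. Probe 1228942 read 12.06, 12.01 and 11.62 in D4 Blimp-1 cKO cultures and 11.96, 11.27 and 11.85 in D4 wild type cultures, which overlapped. At D3 the levels were 11.63, 11.30 and 10.82 in Blimp-1 cKO and 10.40, 10.26 and 10.13 in wild type, which did not. Cd59a was 1.99-fold higher in Blimp-1 cKO at D3 (log2 fold change 0.99, SE 0.22, adjusted p = 0.0414) and 0.21 higher on the log2 scale at D4 (95% interval -0.29 to 0.70, adjusted p = 0.69). Wild type cultures were 2.70-fold higher at D4 than at D3 (1.43, SE 0.22, adjusted p = 0.00198), while the change of 0.65 in Blimp-1 cKO did not pass (adjusted p = 0.112). The genotype effect at D4 minus that at D3 was -0.78 (95% interval -1.48 to -0.09), with an adjusted p of 0.619 by limma. The D3 call was lost in 8 of the 12 fits that left out 1 array, among them those without D3 wild type replicate 1, 2 or 3 (adjusted p = 0.0738, 0.135 and 0.172), D3 Blimp-1 cKO replicate 1 or 2 (0.159 and 0.141), D4 wild type replicate 3 (0.0577) and D4 Blimp-1 cKO replicate 1 or 2 (0.0555 and 0.0615).

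**Figure D3:**
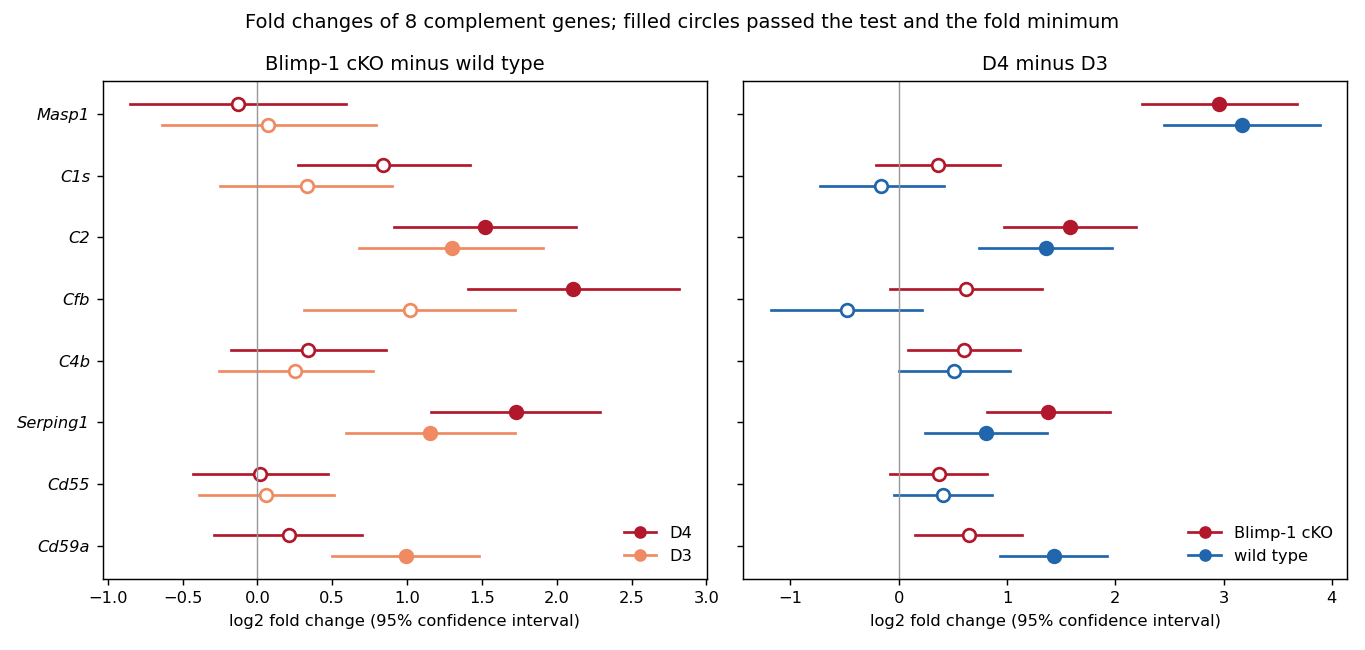
Log2 fold change (horizontal axis) of 8 complement genes, Blimp-1 cKO minus wild type at D4 and D3 on the left and D4 minus D3 in Blimp-1 cKO and wild type on the right, with 95% confidence intervals from the fit over all 12 arrays. Filled circles passed an adjusted p of 0.05 and 1.5-fold, and lie furthest to the right for Cfb (2.11, or 1.67 without D4 wild type replicate 1) at D4 and for Masp1 (2.96 in Blimp-1 cKO and 3.17 in wild type) between days.

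The stretch before an annotated transcript start was available from RefSeq (GRCm38.p6) for 4 of the 9 genes, C1s, C3, Cd55 and Cd59a. Those of both membrane regulators are shown, since Cd59a differed between groups and Cd55 did not. Each runs over the 250 bases before the start, 5′ to 3′ on the gene's strand, with motif matches in capitals. Cd59a lies on the plus strand (chr2:104095551-104095800) and Cd55 on the minus strand (chr1:130462745-130462994). Both starts lie inside the annotated gene, so neither is its outermost start. The whole Cd55 window and the last part of the Cd59a window fall within the gene.
Cd59a: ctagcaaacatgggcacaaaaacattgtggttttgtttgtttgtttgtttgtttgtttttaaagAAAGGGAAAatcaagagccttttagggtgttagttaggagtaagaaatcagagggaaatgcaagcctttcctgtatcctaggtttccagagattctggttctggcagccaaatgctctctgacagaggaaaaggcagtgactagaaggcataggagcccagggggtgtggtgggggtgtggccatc
Cd55: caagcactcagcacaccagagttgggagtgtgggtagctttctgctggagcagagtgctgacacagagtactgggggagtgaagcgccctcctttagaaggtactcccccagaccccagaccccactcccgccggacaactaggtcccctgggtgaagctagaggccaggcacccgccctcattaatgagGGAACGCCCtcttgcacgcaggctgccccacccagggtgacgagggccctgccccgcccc
The motifs given here, searched on both strands, were AAANNGAAA, as in interferon-stimulated response elements, GTGAAAG, a core read by Blimp-1 and IRF factors, and GGNNNTTCC, as in NF-kB sites. Cd59a had 1 match to AAANNGAAA, 186 to 178 bases before the start, a motif present in 9.37% of all 32851 windows of that length. Cd55 had 1 match to GGNNNTTCC on the opposite strand, 60 to 52 bases before the start, present in 15.7% of windows. C1s had a match to GGNNNTTCC at the same site before both of its annotated starts, whose windows overlap, and C3 had no match. GTGAAAG, present in 3.57% of windows, was matched before none of the 4 genes. A match describes letters and not a bound site.

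A wider list of 43 further complement genes was taken from textbook membership, of which 40 had a probe and 12 were tested. None of the 12 was called for genotype at D4 or D3 by limma, with medians of -0.10 at D4 and 0.11 at D3. The shares of all genes called were 2.79% higher and 1.45% lower at D4, and 1.94% higher and 0.55% lower at D3. At an unadjusted p under 0.05 there was 1 at D4, C8b, beside 2139 of all 10724 genes, and 2 at D3, Cd59b and C4a, beside 1343 of all genes. C1qa, C1qb and C1qc, the subunits of the C1q recognition molecule that macrophages make, differed by at most 0.44 on the log2 scale between genotypes on either day. Properdin (Cfp), which stabilises the alternative pathway convertase, read 10.36, 10.32 and 10.18 in D4 Blimp-1 cKO cultures and 10.70, 10.49 and 10.29 in D4 wild type cultures, overlapping (-0.21, adjusted p = 0.467).

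Between days 3 of the 12 were called higher at D4 in wild type cultures, C4a, C9 and Cd59b, and C4a alone in Blimp-1 cKO cultures. Over all genes 7.09% were called higher in wild type and 2.53% in Blimp-1 cKO, so no difference between genotypes is read from the counts. C4a, the near copy of C4b, read 7.32, 7.46 and 7.99 in D4 Blimp-1 cKO and 7.64, 7.0 and 7.37 in D4 wild type cultures, and 6.66, 6.33 and 5.72 in D3 Blimp-1 cKO and 5.93, 5.13 and 5.30 in D3 wild type cultures. All D4 arrays lay above all D3 arrays, and none of the D3 wild type arrays was detected. The increase was 2.55-fold in Blimp-1 cKO (adjusted p = 0.0246) and at least 2.13-fold in wild type (adjusted p = 0.00168), a bound set against the lowest detected signal of each D3 array. A second C4a probe, 2646052, was detected on 0 of 3 D3 arrays of either genotype, and was at least 1.57-fold higher at D4 in Blimp-1 cKO (adjusted p = 0.0196) and at least 1.71-fold higher in wild type (adjusted p = 0.00256).

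Cd59b is a near copy of Cd59a, with 9962 bases between the 2 genes on chromosome 2. It read 9.22, 9.60 and 8.70 in D4 Blimp-1 cKO cultures and 8.98, 8.58 and 9.25 in D4 wild type cultures, and 8.20, 9.03 and 8.41 in D3 Blimp-1 cKO and 8.02, 7.10 and 7.06 in D3 wild type cultures. The change between days was 0.62 in Blimp-1 cKO (adjusted p = 0.267) and 1.54 in wild type (adjusted p = 0.00707), beside a genotype difference of 1.15 at D3 (adjusted p = 0.107). The part of cross-reading between the copies was not tested. C9, a subunit of the membrane pore, was called by probe 2937375 in wild type (at least 2.49-fold, adjusted p = 0.00683) and not by probe 2937379 (0.16, adjusted p = 0.786). Cr1l, which encodes Crry, the rodent membrane regulator of C3 cleavage, differed by -0.02 at D4 and -0.18 at D3. Both C1ra probes were detected on no array, so that the partner protease of C1s was not tested, and Clu had no probe carrying its symbol.

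**Figure D4:**
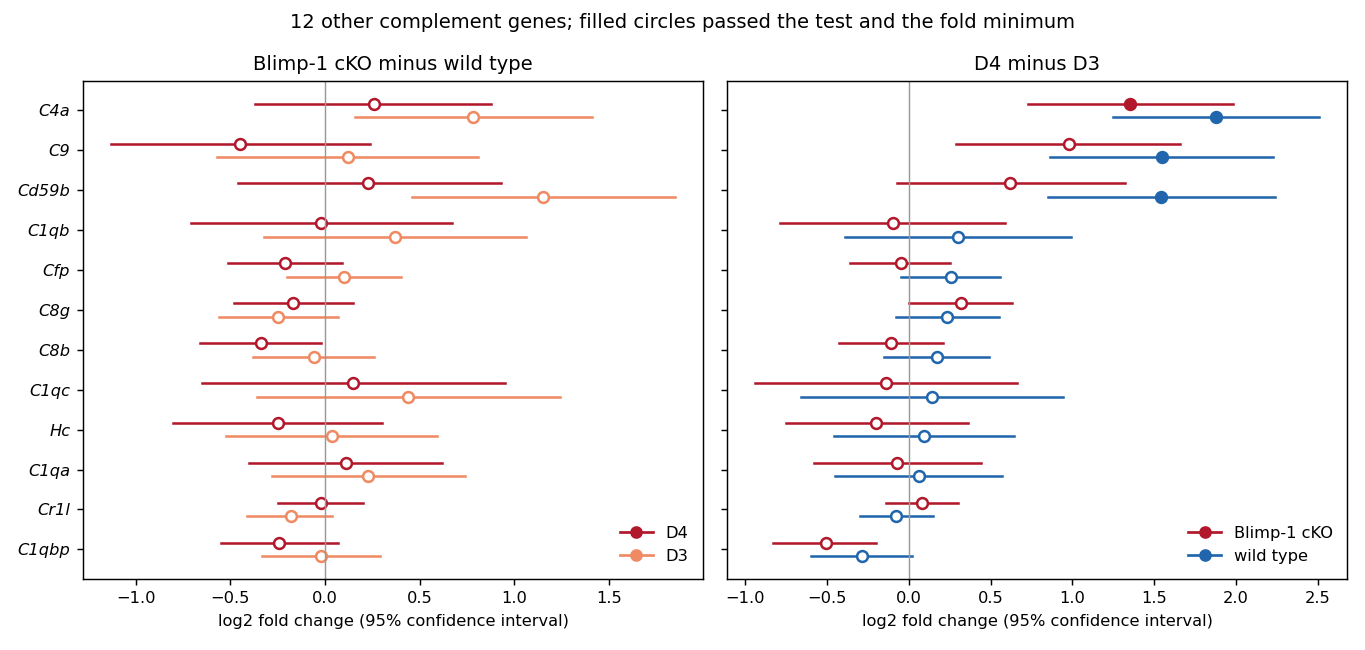
Log2 fold change (horizontal axis) with 95% confidence interval of the 12 tested genes of the wider complement list, Blimp-1 cKO minus wild type at D4 and D3 on the left and D4 minus D3 in Blimp-1 cKO and wild type on the right. Filled circles passed an adjusted p of 0.05 and 1.5-fold, so that no genotype circle is filled, and C4a is filled in both genotypes between days.

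Other genes within 200000 bases of one of the 9 genes, by lower coordinate, were read as well, 53 tested genes, 28 of them near C2, Cfb and C4b. Ube2l6, an enzyme that attaches ISG15 to proteins, lies 33468 bases above Serping1 by lower coordinate and was called higher in Blimp-1 cKO at D4 (1.81, adjusted p = 0.000913) and D3 (1.46, adjusted p = 0.00402). Rtp4, a known interferon-stimulated gene, lies 68434 bases above Masp1 and was called higher at D3 (2.34, adjusted p = 0.000285), a comparison in which Masp1 differed by 0.07. No other neighbour was called for genotype on either day, and thus none of the 28 near C2, Cfb and C4b. Over all genes 2.79% were called higher and 1.45% lower at D4, and 1.94% higher and 0.55% lower at D3. At such shares few calls would be met among 28 genes, so nothing is read from their absence. In wild type cultures 7 neighbours were called higher and 1 lower at D4 than at D3, C4a and Cd59b of the wider complement list among the 7. Rtp4 was also among the 7 (1.97, adjusted p = 0.000883 by limma), in a comparison in which Masp1 rose by 3.17. In Blimp-1 cKO cultures 3 were called higher, C4a, Ddah2 and Slc25a23. Over all genes 7.09% were called higher and 4.89% lower in wild type, and 2.53% higher and 1.61% lower in Blimp-1 cKO.

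For each gene whose group means spanned at least 1 on the log2 scale, the genes with the most similar course were found as those with the smallest mean absolute difference of centred log2 signal over the 12 arrays. Masp1 lay closest to Foxi1 (0.32), Arhgef6 (0.48) and Atp6v1b1 (0.50). Foxi1, a transcription factor of proton-pumping cells, was called higher at D4 than at D3 in Blimp-1 cKO (2.40, adjusted p = 0.0113) and wild type (3.28, adjusted p = 0.000738), and Atp6v1b1 encodes a proton pump subunit of such cells. Atp6v1b1 was detected on none of the 6 D3 arrays, where its signal is background. At D4 Blimp-1 cKO minus wild type was -0.82 for Foxi1, -1.13 for Arhgef6 and -1.46 for Atp6v1b1, beside -0.13 for Masp1. None of these differences was called (adjusted p = 0.3, 0.112, 0.0529 and 0.88 by limma). C2 lay closest to Lgals3bp, Trim30d and Nlrc5, at 0.27 each, and Trim30d was detected on none of the D3 wild type arrays. Nlrc5, the activator of MHC class I genes, was higher in Blimp-1 cKO at D4 (1.61, adjusted p = 0.00861) and D3 (1.62, adjusted p = 0.0109).

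Cfb lay closest to Ramp3 (0.26), Trex1 (0.33) and Spink2 (0.34), none of which was called between days. Each of them was called higher in Blimp-1 cKO at D4 and at D3. Spink2 was detected on only 3 of the 12 arrays and Ramp3 on 0 of 3 D4 wild type arrays, so that their distances rest partly on background signal. Serping1 lay closest to Brinp3 (0.27), Kif1a (0.30) and Tap2 (0.31), the last a subunit of the peptide transporter that loads MHC class I. Brinp3 and Kif1a, the closer genes, were called for genotype on neither day, and Tap2 was called higher in Blimp-1 cKO on both. Averaged over both days, Brinp3 (1.05, adjusted p = 0.0132 by limma) and Kif1a (0.86, adjusted p = 0.0302) were also called higher. Cd59a lay closest to Emb (0.13), Fcgrt (0.15) and Cyp2d22 (0.16), and Fcgrt encodes the receptor that carries IgG across epithelia. These distances are a description over 12 arrays that share their 4 groups. C4b, C1s and Cd55 spanned 0.85, 0.84 and 0.43 and were not matched.

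Fibroblasts also make Serping1, C1s and C4b, so the levels of fibroblast genes are given beside them. Of 10 fibroblast markers 9 were tested and none was called for genotype at D4 or D3, with medians of 0.59 at D4 and 0.56 at D3. Averaged over both days, Col1a2 and Fbln1 were called higher in Blimp-1 cKO. Dpt was detected on no array. Their summed signal was 8080, 6400 and 6430 on the D4 Blimp-1 cKO arrays and 8100, 3900 and 3430 on the D4 wild type arrays. At D3 it was 6620, 4070 and 4400 on Blimp-1 cKO arrays and 3660, 3360 and 3480 on wild type arrays. D4 wild type replicate 1 thus had the sum of a Blimp-1 cKO array. On its BeadChip, where the sums were 8080 in Blimp-1 cKO and 8100 in wild type, Serping1 read 10.60 in Blimp-1 cKO and 9.32 in wild type. Blimp-1 cKO minus wild type was 1.28 there for Serping1, 0.98 for C2 and 0.65 for C1s, in each case the smallest of the 3 BeadChips, the others giving 1.89 and 2.00 for Serping1, 2.16 and 1.41 for C2 and 1.12 and 0.76 for C1s. C4b gave 0.39 there and 0.41 and 0.22 on the others. Cfb gave 2.93 there, against a wild type array on which it was not detected, and 1.72 and 1.68 on the others. On the D4 arrays of replicate 1 the brightest of the 9 fibroblast genes were Col1a1, Thy1 and Dcn, which weigh most in the sum. Dcn read 9.83 in Blimp-1 cKO and 10.61 in wild type there, and Pdgfra 8.12 and 9.03. All the other tested fibroblast genes read higher in Blimp-1 cKO there, among them Fbln1 (8.74 and 8.35), Col1a2 (9.04 and 8.4) and Pdgfrb (8.05 and 7.47). Like sums thus need not mean like fibroblast content. The part of fibroblast content in the differences of the complement genes was not tested.

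**Figure D5:**
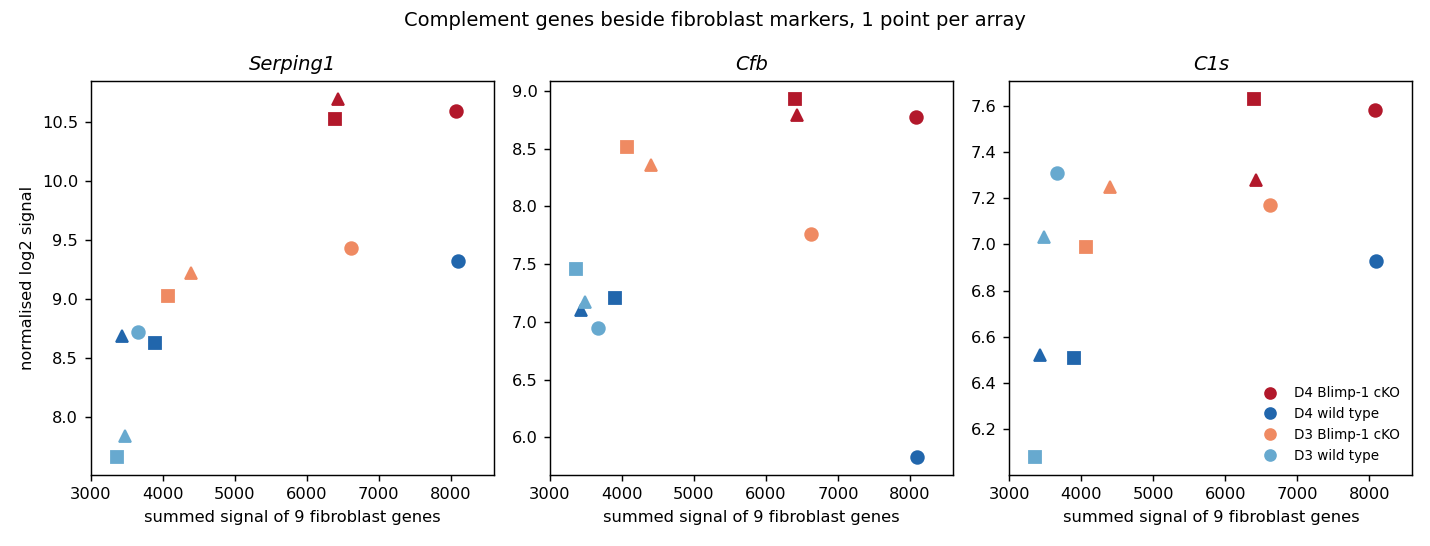
Normalised log2 signal of Serping1, Cfb and C1s (vertical axes, each with its own range that does not start at 0) against the summed signal of 9 fibroblast genes (horizontal axis) on each of 12 arrays, in D4 Blimp-1 cKO, D4 wild type, D3 Blimp-1 cKO and D3 wild type cultures. Circles, squares and triangles are replicates 1, 2 and 3, and the D4 arrays of replicate 1, at sums of 8080 in Blimp-1 cKO and 8100 in wild type, differ in Serping1 and Cfb. Between those arrays Dcn and Pdgfra read lower in Blimp-1 cKO and the rest of the 9 fibroblast genes read higher.

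Other cell types were read by the same kind of list. Of 10 myeloid markers 6 were tested, and Lyz2 was called lower in Blimp-1 cKO at D4 (-1.17, adjusted p = 0.00734), while Ptprc, Adgre1 and Cx3cr1 were detected on no array. The myeloid summed signal ranged from 14500 to 20900 on D4 Blimp-1 cKO arrays and from 20000 to 23400 on D4 wild type arrays, and from 15800 to 16700 on D3 Blimp-1 cKO arrays and from 12400 to 18200 on D3 wild type arrays. Most of that sum was the signal of Cd14, which was not called for genotype on either day. None of the 8 lymphocyte markers was tested. Of 8 basal mammary markers 6 were tested and Krt17 was called higher in Blimp-1 cKO at D4 (0.62, adjusted p = 0.0304), with Krt5, Acta2 and Myh11 called higher in the average over both days. The basal median was 0.62 at D4 and 0.60 at D3. The basal sum ranged from 62300 to 74300 on D4 Blimp-1 cKO arrays and from 48700 to 57100 on D4 wild type arrays, without overlap. At D3 it ranged from 63100 to 80000 in Blimp-1 cKO and from 59000 to 63800 in wild type. The part of basal cell content in the differences of the complement genes was not tested. Of 5 hepatocyte markers, Alb, Apoa1, Ttr and Fgb were detected on no array, and Serpina1a, detected on 1 or 2 of the 3 arrays of each group, was not called in any comparison.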

How the data were processed

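Total RNA was hybridised to Illumina Mouse WG-6 v2 BeadChips, 12 arrays in 4 groups of 3. The authors deposited a table of non-normalized probe intensity with a detection p-value per array, and a table of intensity values that they had rank-invariant normalised with background subtraction in GenomeStudio, which was used only as an alternative. Background was corrected from the detection p-values and signals were quantile-normalised with neqc (limma 3.58.1, R 4.3.3, offset 16). A probe was tested where its detection p lay below 0.05 on 3 or more of the 12 arrays, which held for 19972 of 45281. Probe names came from the platform annotation with updated symbols, 34885 probes having 1 symbol, 18 several and 10378 none. The brightest tested probe stood for a gene. Group means of all 12 arrays were compared with lmFit and eBayes, p-values were adjusted by Benjamini-Hochberg over all tested probes, and the methods' 1.5-fold minimum was kept. The GenomeStudio error model was not rerun. The number of arrays limits the precision. The fit was tested on simulated data.

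The genes, lists, tests and alternatives were chosen with earlier results of these data known. Named were all 9 genes with every probe, and called genes of the wider complement list with C1ra, C4a, Clu and Cr1l. The 3 nearest genes in course outside both lists were named as well. Chromosomal neighbours were named where called for genotype or between days in Blimp-1 cKO, and markers where called for genotype, with some others. Other marker calls between days, and the endothelial and adipocyte lists, are not given here. Other genes of the wider list were named once their values had been seen. The replicate number marks the BeadChip at D4, since 598 of 598 probes of the study's table match, to within 0.1%, the array deposited under that group and number. For D3 no source read here gives the BeadChips. Residuals of arrays with the same number correlated at -0.05, 0.03 and -0.08 between genotypes at D4, at 0.14, 0.09 and 0.10 between genotypes at D3, at 0.31, 0.35 and 0.36 between days in Blimp-1 cKO and at 0.18, 0.13 and 0.08 between days in wild type. Tried instead were the processed values of the authors with a floor of 10, signals without background correction, all probes, probes below a detection p of 0.01 on every array of some group, the replicate block, trend and robust options, any probe, no fold minimum, only 1 day or genotype, the methods' t-test and leaving out each array. One further motif and further genes of the wider list are not reported here.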

Additional observations from a re-analysis of the deposited data

How the results depend on the processing

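Across 32 results for single genes and 696 alternatives, 629 kept the direction and the side of the threshold, 52 lost a call, 4 gained one and 11 changed sign, all 11 among differences that were not called. The 3 calls at D3 became 1 without a filter, 0 in a fit of only the D3 arrays and 0 by the methods' t-test after adjustment (4 unadjusted), and 0 to 4 when 1 array was left out. The 3 calls at D4 became 0 by that t-test after adjustment (4 unadjusted). The 3 calls between days in Blimp-1 cKO were 1 to 3 when 1 array was left out, with 1 without D4 Blimp-1 cKO replicate 2, which left Masp1. The wider list had 0 to 1 genotype calls at D3, the 1 being Cd59b without D3 wild type replicate 1. With the replicate block in the fit of 4 groups there were 3 calls at D4 and 4 at D3, the added one being Cfb, and in a fit of only the D4 arrays with that block C2 was not called at D4. The replicate block changed no other call of the 8 genes. Alternatives for single genes between days were added after the data had been seen.

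Sign changes were found in the fits that left out 1 array for Masp1 (-0.16 to 0.35 at D3, -0.41 to 0.17 at D4), Cd55 (-0.07 to 0.21 at D3, -0.15 to 0.16 at D4), C1s (-0.04 to 0.58 at D3, and -0.52 to 0.09 for D4 against D3 in wild type) and Cd59a (0.00 to 0.34 at D4). With any probe in place of the brightest, C1s changed by 0.38 between days in wild type. The cause was not tested. Signals of C1s, C4a and C9 lie near background on part of the arrays.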
